A study of Mus musculus with 12 samples.

Results

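The comparison described here set Foxp3- effector CD4+ T cells (Teff) that had been cultured with the soluble ligands OX40L and JAG1 against the same kind of cell taken fresh from the mouse spleen. Its members were the arrays whose titles name them OX40L-JAG1 Teff or Control Teff, 2 of each, so 4 of the 12 arrays of the series. The OX40L-JAG1 Teff cells came from splenic CD4+ cells, Treg and Teff together, kept for 3 days with OX40L at 5 µg/ml and JAG1 at 1 µg/ml and then sorted as GFP-negative. The anti-CD3-CD28 Teff cells were kept for 3 days with 2 µg/ml each of antibodies to CD3 and CD28, and the Foxp3+ cells of the ligand cultures and of the fresh spleens were the OX40L-JAG1 Treg and Control Treg groups. The Control Teff cells had been neither cultured nor treated, so time in culture and the ligands cannot be told apart in their comparison. The mice of all groups were Foxp3.eGFP animals, C57BL/6 in background and 8 weeks old, in which GFP marks cells that express Foxp3. Each group had 2 arrays, replicate B and replicate 1, and whether these came from separate mice or cultures is not stated. All p-values thus measure only the spread between such arrays, which may be technical.

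OX40, encoded by Tnfrsf4, is a costimulatory receptor of the TNF receptor family that T cells raise after activation and Treg cells carry at rest. Its ligand OX40L acts through TRAF adaptors and NF-kappaB. JAG1 is a ligand of the Notch receptors, which are cut upon binding and release an intracellular part that acts with Rbpj and Maml proteins on genes such as Hes1 and Dtx1. The series sets cells expanded with both ligands against cells expanded through the T cell receptor and against fresh cells.

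Levels are log2 intensities after quantile normalization of the 12 arrays, 1 value per gene, and a difference is the mean of OX40L-JAG1 Teff minus the mean of Control Teff on that scale. The median of all values was 4.97, and levels below it were not shown to be above background. The OX40L-JAG1 Teff arrays stood apart. As deposited, their values had an SD over genes of 1.49 (replicate B) and 1.71 (replicate 1), while the SD of the 10 arrays of the other groups lay between 1.95 and 2.19. After normalization the 2 replicates correlated at 0.879 across genes, and those of the 5 other groups at 0.984 to 0.994. Each group was therefore given its own weight, 0.131 for OX40L-JAG1 Teff and 0.962 to 2.54 for the others, so that its wider spread entered the tests.

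**Figure D1:**
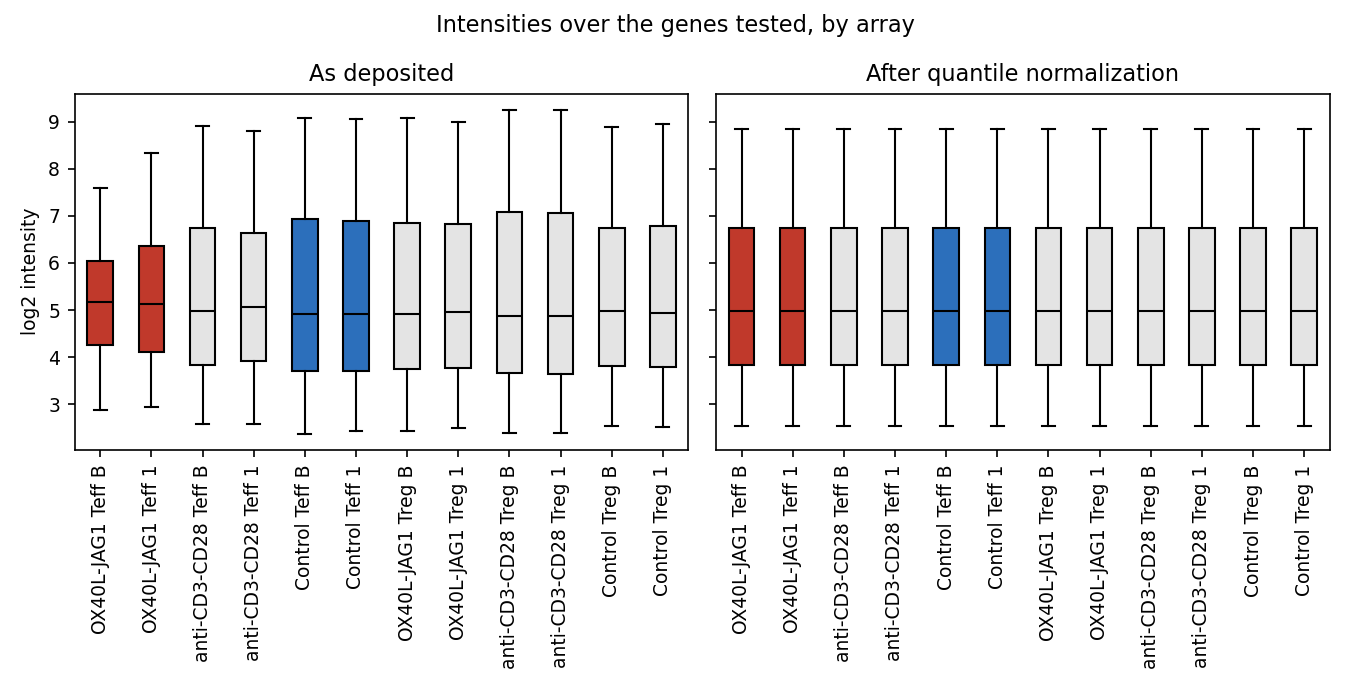
Log2 intensities over the 22180 genes tested on each of the 12 arrays, as deposited on the left and after quantile normalization on the right; boxes span the quartiles with the median as a line, and whiskers run between percentiles 5 and 95. The deposited OX40L-JAG1 Teff arrays (red) have a narrower range than the Control Teff arrays (blue) and the Treg and anti-CD3-CD28 arrays (grey), and the normalized ranges are alike by construction.

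Of 22180 genes, 711 (3.21%) differed between OX40L-JAG1 Teff and Control Teff at an adjusted p under 0.05 in limma. Among them 295 (1.33% of all genes) were higher and 416 (1.88%) were lower in OX40L-JAG1 Teff. These 2 shares are the background for the counts of list members below. In all 711 both arrays of one group lay above both arrays of the other, and so did 24% of all genes for the higher side and 29.6% for the lower side. The calls rest on the spread shared over the 12 arrays. A fit to the 4 arrays alone called 0 genes, with 4302 at an unadjusted p under 0.05, the smallest adjusted p being 0.0527. Without OX40L-JAG1 Teff replicate B the 12-array fit called 49 genes, 44 of them called in the same direction before, and without replicate 1 it called 376, with 169 shared. Without Control Teff replicate B it called 409. The scale mattered too. With the values as deposited 3314 genes were called, 382 higher and 2932 lower, and 582 of the 711 were called in the same direction, while the median difference over all genes was 0.18. Centred on the median alone, 4391 were called, 235 higher and 4156 lower. With the trend of the difference against level removed by loess, 706 were called, 380 higher and 326 lower. The share of higher genes among those called was thus 41.5% after quantile normalization, 11.5% as deposited, 5.35% after centring and 53.8% after loess.

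The sort was checked first. Foxp3, the transcription factor that defines Treg cells and whose reporter set the sort gate, had 7.26 and 7.28 in the OX40L-JAG1 Teff arrays (replicate B, then replicate 1, as for all pairs of values), against 5.65 and 5.65 in the Control Teff arrays. It had 10.86 and 10.54 in OX40L-JAG1 Treg cells and 10.31 and 10.26 in Control Treg cells. Foxp3 was thus far lower in both Teff groups than in Treg cells, and higher in OX40L-JAG1 Teff than in Control Teff by 1.62 (SE 0.39, adjusted p = 0.0455). As deposited that difference was 0.92 and did not pass.

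Genes of the T cell receptor complex and of T cell identity kept high levels in both groups. Cd4, the coreceptor by which the cells were isolated, had 10.14 and 9.92 in OX40L-JAG1 Teff, against 12.03 and 11.99 in Control Teff, a difference of -1.98 (SE 0.42, adjusted p = 0.0292). Cd3e, a signalling chain of the T cell receptor complex, had 10.61 and 10.13 in OX40L-JAG1 Teff and 12.05 and 11.97 in Control Teff, a difference of -1.64 (SE 0.36, adjusted p = 0.0322). These were the 2 genes of 21 in the list that fell (9.52%, against 1.88% of all genes), and none rose. As deposited 18 of the 21 were called lower, with a median of -1.68. The median difference of the list was -0.81. For 19 of its genes, against 29.6% of all genes, both OX40L-JAG1 Teff arrays lay below both Control Teff arrays. Cd3d, the delta chain, was an exception, with 9.56 and 10.49 in OX40L-JAG1 Teff and 9.58 and 9.54 in Control Teff. After loess the list's median was -0.57 and neither Cd4 nor Cd3e passed, and none of the list was called with either OX40L-JAG1 Teff array left out. In sorted but bulk samples such as these, fewer cells of a type and less RNA per cell cannot be told apart.

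Other markers of Treg cells changed in part. Of 28 measured, Foxp3 included, 4 rose (14.3%, against 1.33% of all genes) and 1 fell (3.57%, against 1.88%). Their median difference was 0.41. Il2ra, the alpha chain of the IL-2 receptor, had 8.35 and 8.64 in OX40L-JAG1 Teff and 6.72 and 6.51 in Control Teff, a difference of 1.88 (SE 0.36, adjusted p = 0.0205). Ctla4, a coinhibitory receptor, had 7.23 and 7.56 in OX40L-JAG1 Teff, against 5.92 and 6.07 in Control Teff, and differed by 1.40 (SE 0.32, adjusted p = 0.0361). Tigit, another coinhibitory receptor, went the other way, with 3.26 and 4.38 in OX40L-JAG1 Teff and 5.82 and 5.87 in Control Teff, a difference of -2.03 (SE 0.44, adjusted p = 0.0294). With the values as deposited, Foxp3, Il2ra, Ctla4 and Tnfrsf4 no longer passed, and none of the 28 was called with either OX40L-JAG1 Teff array left out. In anti-CD3-CD28 Teff the median difference of the list from Control Teff was 0.85. There Il2ra, Ctla4 and Tnfrsf4 differed by 4.69, 3.76 and 3.32, Tigit by 2.51 and Foxp3 by -0.01. The summed level of the 28 genes was 11.54 and 11.74 (log2) in OX40L-JAG1 Teff and 11.08 and 11.06 in Control Teff, and the share of Treg cells in the sorted Teff cells was not tested.

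The largest rises were genes of granulocytes and other myeloid cells. Of 22 measured neutrophil genes 10 rose and none fell, a share of 45.5% against 1.33% of all genes, and their median difference was 2.73, against -0.00314 over all genes. S100a8 and S100a9 encode the subunits of calprotectin, an abundant protein of neutrophils. S100a8 had 11.41 and 11.87 in OX40L-JAG1 Teff, against 5.23 and 5.18 in Control Teff, a difference of 6.44 (SE 0.56, adjusted p = 0.00036), the largest named rise. S100a9 had 10.38 and 10.55 in OX40L-JAG1 Teff and 4.61 and 4.30 in Control Teff, a difference of 6.01 (SE 0.56, adjusted p = 0.000381). In Control Teff both genes sat near or below the median of all values, and in OX40L-JAG1 Teff they were among the bright genes on both arrays.

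Several of these genes encode granule contents. Ngp, neutrophilic granule protein, had 10.71 and 10.58 in OX40L-JAG1 Teff and 5.49 and 5.46 in Control Teff, a difference of 5.17 (SE 0.37, adjusted p = 7.24e-05). Ltf, which encodes lactoferrin, had 9.77 and 9.86 in OX40L-JAG1 Teff, against 5.35 and 4.93 in Control Teff, and differed by 4.68 (SE 0.42, adjusted p = 0.000381). Camp, the cathelicidin precursor, had 8.12 and 9.68 in OX40L-JAG1 Teff and 3.58 and 3.99 in Control Teff, a difference of 5.12 (SE 0.63, adjusted p = 0.00219), with replicate 1 the higher. Chil3, a chitinase-like lectin of myeloid cells, had 9.999 and 11.10 in OX40L-JAG1 Teff, against 4.34 and 4.45 in Control Teff, a difference of 6.15 (SE 0.70, adjusted p = 0.00135). Lcn2, Mmp8, Ifitm6 and Stfa1 also rose, by 2.76 to 3.39. The list was not uniform. Elane and Mpo, proteins of early granulocyte granules, did not pass, with 6.08 and 7.97 for Elane and 6.35 and 6.17 for Mpo in OX40L-JAG1 Teff, against 7.46 and 7.44 for Elane and 7.50 and 7.59 for Mpo in Control Teff. Retnlg had 3.61 and 7.43 in OX40L-JAG1 Teff and 3.88 and 4.16 in Control Teff, so only replicate 1 was high. Stfa2l1 showed the same split with 3.23 and 7.49 in OX40L-JAG1 Teff and 2.29 and 3.02 in Control Teff. The summed level of the 22 genes was 13.22 and 13.76 in OX40L-JAG1 Teff and 9.86 and 9.85 in Control Teff. Without OX40L-JAG1 Teff replicate B 8 of the 22 were called higher and without replicate 1 there were 7.

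**Figure D2:**
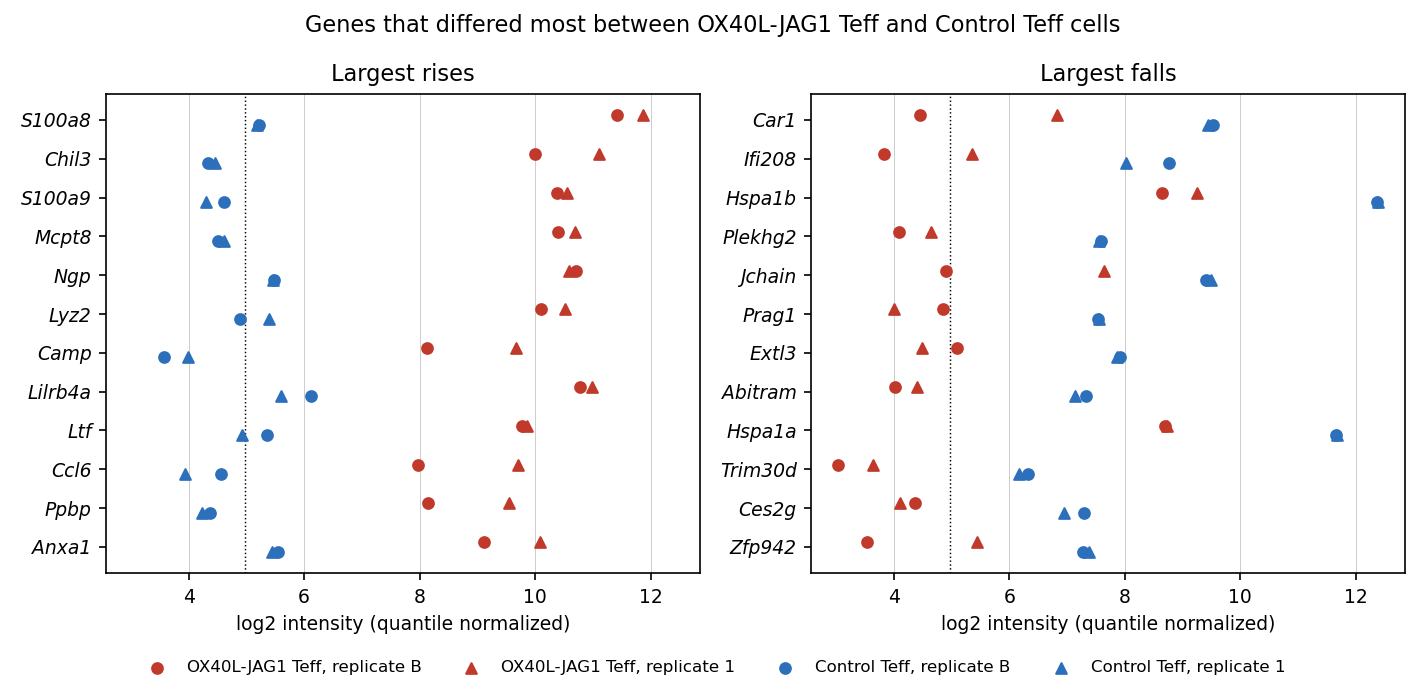
Quantile-normalized log2 intensity on each array for the 12 largest named rises (left) and falls (right); red symbols are OX40L-JAG1 Teff and blue symbols Control Teff, circles replicate B and triangles replicate 1, and the dotted line marks the median of all values, 4.97. S100a8 lies at 11.41 and 11.87 in OX40L-JAG1 Teff and at 5.23 and 5.18 in Control Teff, and Hspa1a at 8.70 and 8.72 in OX40L-JAG1 Teff and 11.66 and 11.67 in Control Teff.

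Basophil and mast cell genes rose as a smaller group, 5 of 17 (29.4%, against 1.33% of all genes) with none lower. Their median difference was 0.77. Mcpt8, a protease of basophils, had 10.40 and 10.69 in OX40L-JAG1 Teff and 4.51 and 4.61 in Control Teff, a difference of 5.99 (SE 0.39, adjusted p = 3.94e-05). Cpa3, the carboxypeptidase of mast cells and basophils, had 9.81 and 10.34 in OX40L-JAG1 Teff, against 6.48 and 6.28 in Control Teff, and differed by 3.69 (SE 0.56, adjusted p = 0.00712). Prss34, another basophil protease, rose by 3.51. Hdc, which makes histamine, rose by 2.86, and Cyp11a1, which starts steroid synthesis from cholesterol, by 2.12. In anti-CD3-CD28 Teff Cyp11a1 had 7.15 and 7.42 and differed from Control Teff by 2.97. Mcpt8, Cpa3, Prss34 and Hdc differed there by 0.40, -0.69, -0.38 and -0.22. The high-affinity IgE receptor alpha chain Fcer1a had 2.97 and 7.38 in OX40L-JAG1 Teff and 2.54 and 2.15 in Control Teff, high on 1 array, and did not pass. Kit, the stem cell factor receptor of mast cells, had 5.46 and 5.79 in OX40L-JAG1 Teff and 6.70 and 6.88 in Control Teff and did not pass. The mast cell proteases Cma1, Mcpt4, Tpsb2 and Tpsab1 did not pass either and were at or below 5.03 on every one of the 4 arrays. Without OX40L-JAG1 Teff replicate B 3 of the 17 were called higher and without replicate 1 there were 2. The summed level of the 17 genes was 11.59 and 12.08 in OX40L-JAG1 Teff and 8.93 and 8.95 in Control Teff.

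Among 27 genes of monocytes, macrophages and dendritic cells 5 rose (18.5%, against 1.33% of all genes) and none fell. Their median difference was 0.74. Lyz2, lysozyme of myeloid cells, had 10.11 and 10.51 in OX40L-JAG1 Teff and 4.88 and 5.39 in Control Teff, a difference of 5.17 (SE 0.59, adjusted p = 0.00136). Fcer1g, the common signalling chain of Fc receptors, rose by 3.06 and the adaptor Tyrobp by 3.34. Tyrobp differed between the OX40L-JAG1 Teff arrays, at 7.75 and 10.05, while Control Teff had 5.67 and 5.44. Itgam, the CD11b integrin of myeloid cells, rose by 2.06, and Spi1, which encodes the myeloid factor PU.1, by 1.90. Several markers of macrophages and dendritic cells were near or below the median of all values. Csf1r had 4.92 and 4.76 in OX40L-JAG1 Teff and 4.44 and 4.08 in Control Teff, and Itgax, Flt3, Siglech, C1qb and C1qc were also at or below 5.02 on all 4 arrays. Without OX40L-JAG1 Teff replicate B 2 of the 27 were called higher and without replicate 1 there was 1. The summed level of the 27 genes was 11.72 and 12.46 in OX40L-JAG1 Teff and 10.05 and 10.01 in Control Teff. Lilrb4a, an inhibitory receptor of myeloid cells, rose by 5.02 to 10.77 and 10.99 in OX40L-JAG1 Teff, against 6.12 and 5.60 in Control Teff. In anti-CD3-CD28 Teff Lilrb4a also differed from Control Teff, by 3.53, while the median difference of the 27 genes there was 0.01. Between the cultures Lilrb4a did not pass in limma (adjusted p = 0.246). Which cells its signal came from was not tested. Anxa1, an annexin of myeloid cells that limits inflammation, had 9.11 and 10.09 in OX40L-JAG1 Teff and 5.54 and 5.45 in Control Teff, a difference of 4.11 (SE 0.44, adjusted p = 0.000789).

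The MHC class II pathway, by which antigen-presenting cells show peptides to CD4+ T cells, had 2 of 11 genes higher and none lower. That share of higher genes was 18.2%, against 1.33% of all genes. H2-Ab1 had 8.95 and 9.49 in OX40L-JAG1 Teff, against 7.35 and 7.34 in Control Teff, a difference of 1.87 (SE 0.36, adjusted p = 0.0185). H2-Aa differed by 1.67 (SE 0.40, adjusted p = 0.0454). Both lost the call with the deposited values. H2-Eb1 was at 8.40 and 8.92 in OX40L-JAG1 Teff and 6.51 and 6.76 in Control Teff and did not pass (adjusted p = 0.0668).

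Platelet and red cell genes split. Ppbp, a chemokine stored in platelets, had 8.15 and 9.54 in OX40L-JAG1 Teff, against 4.37 and 4.24 in Control Teff, a difference of 4.54 (SE 0.42, adjusted p = 0.000381). Pf4, platelet factor 4, had 5.65 and 8.83 in OX40L-JAG1 Teff and 4.06 and 4.27 in Control Teff, a difference of 3.07 (SE 0.60, adjusted p = 0.0207), with most of it in replicate 1. Treml1, a receptor of platelet granules, was the reverse with 8.40 and 6.41 in OX40L-JAG1 Teff and 5.38 and 5.37 in Control Teff. It differed by 2.03 (SE 0.43, adjusted p = 0.0278). The carbonic anhydrases of red cells fell. Car1 had 4.45 and 6.83 in OX40L-JAG1 Teff, against 9.52 and 9.44 in Control Teff, a difference of -3.84 (SE 0.53, adjusted p = 0.0042), the largest named fall. Car2 had 4.55 and 7.69 in OX40L-JAG1 Teff and 8.94 and 8.92 in Control Teff, a difference of -2.81 (SE 0.59, adjusted p = 0.0271). The erythroid factor Klf1 had 4.15 and 5.27 in OX40L-JAG1 Teff, against 5.73 and 5.81 in Control Teff, and did not pass. Of the 10 genes of this list 3 rose (30%, against 1.33% of all genes) and 2 fell (20%, against 1.88%).

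Immunoglobulin gene segments were the group with the largest median fall. Of 22 measured, 17 (77.3%, against 1.88% of all genes) were lower in OX40L-JAG1 Teff and none was higher, and the median difference was -3.00. Their summed level was 12.08 and 11.98 in OX40L-JAG1 Teff, against 14.58 and 14.52 in Control Teff. Without OX40L-JAG1 Teff replicate B 2 of the 22 were called lower and without replicate 1 there were 5. Jchain, which joins secreted IgM and IgA, had 4.90 and 7.64 in OX40L-JAG1 Teff and 9.40 and 9.49 in Control Teff, a difference of -3.18 (SE 0.53, adjusted p = 0.0113). It was the 1 gene of 19 on the B cell and plasma cell list that passed. For 9 of the 19 both OX40L-JAG1 Teff arrays were below both Control Teff arrays and for 1 above, and 3 differences were positive. Of all genes 29.6% lay below in this way and 24% above. The summed level of the 19 was 9.80 and 10.23 in OX40L-JAG1 Teff, against 10.74 and 10.77 in Control Teff. Ebf1, a factor of B cell identity, had 3.78 and 3.78 in OX40L-JAG1 Teff and 4.79 and 4.86 in Control Teff (adjusted p = 0.0991). The B cell receptor chain gene Cd79a had 6.72 and 7.13 in OX40L-JAG1 Teff and 7.04 and 7.07 in Control Teff, and Cd79b had 6.80 and 7.23 in OX40L-JAG1 Teff and 6.48 and 6.52 in Control Teff. The plasma cell genes Xbp1 and Sdc1 differed by -0.06 and -0.09. Among 9 T cell receptor segments 2 fell (22.2%, against 1.88% of all genes) and none rose, with a median difference of -0.93.

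Of 15 CD8 T and NK cell genes none passed in limma, while an unadjusted p under 0.05 was reached by 3 higher and 1 lower genes. Gzma was at 4.82 and 8.50 in OX40L-JAG1 Teff and 5.07 and 4.82 in Control Teff, high on 1 array. Of 16 stromal and endothelial genes none passed either, while an unadjusted p under 0.05 was reached by 3 higher and 1 lower genes. Over all 22180 genes such a p was reached by 1681 higher and 2261 lower ones. The part that cells other than Teff had in the changes of the T cell genes below was not tested.

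**Figure D3:**
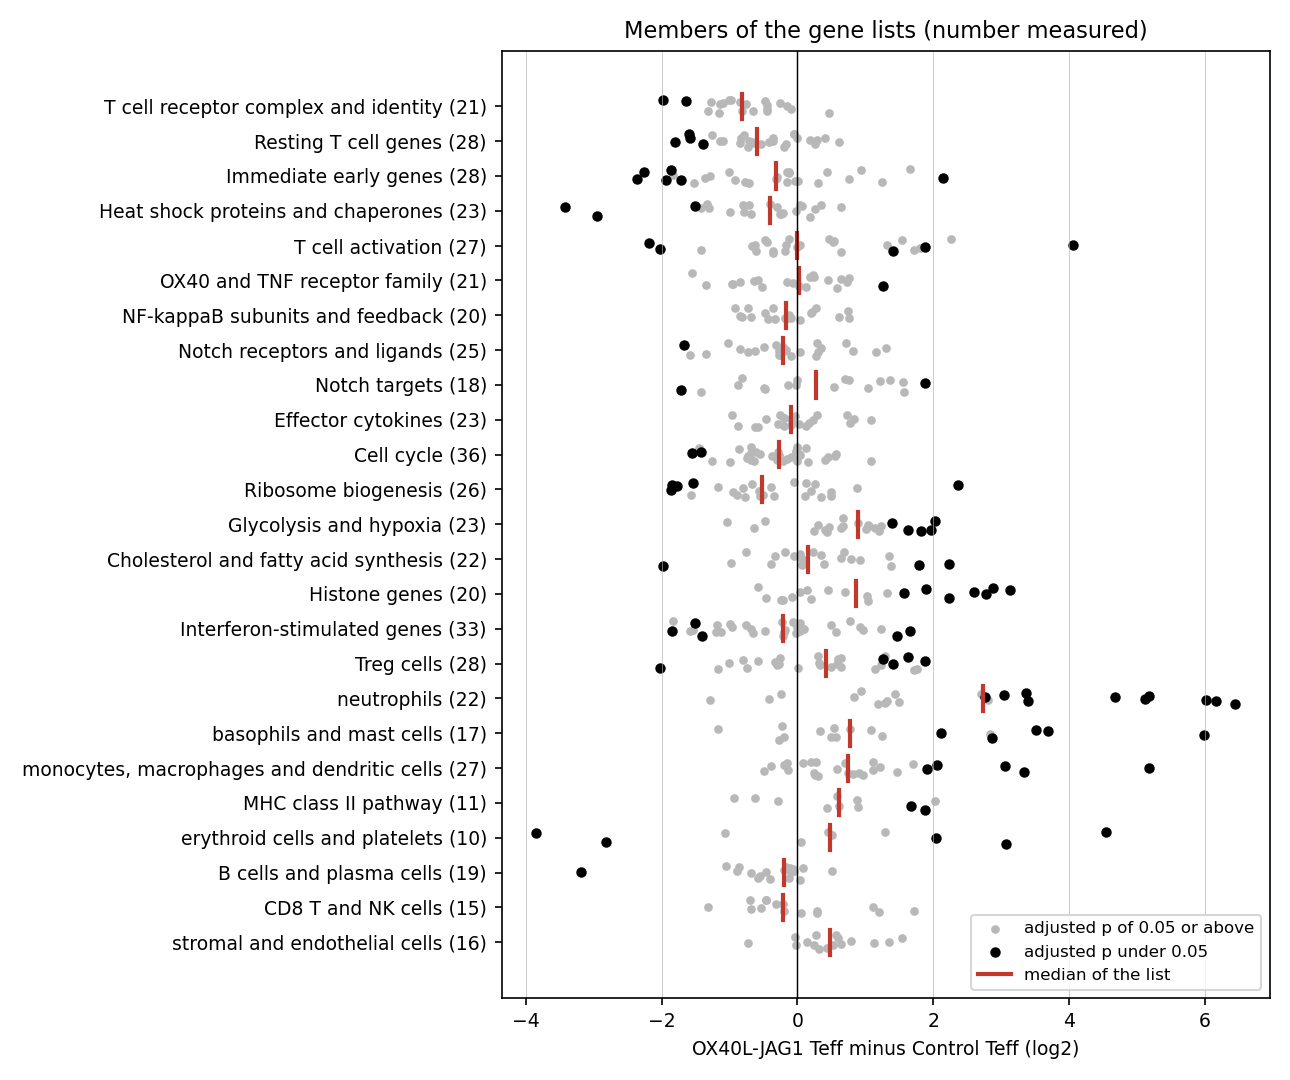
Difference between OX40L-JAG1 Teff and Control Teff (log2, horizontal axis) for the measured members of 25 gene lists, with the number measured in brackets; black points had an adjusted p under 0.05, grey points did not, and the red bar is the median of the list. The neutrophil list has 10 black points on the right and a median of 2.73, and the T cell receptor and identity list has 2 on the left and a median of -0.81.

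Of the receptors of the added ligands, the OX40 receptor gene rose and the Notch receptor genes did not pass. Tnfrsf4, the OX40 receptor, had 7.69 and 8.04 in OX40L-JAG1 Teff, against 6.60 and 6.62 in Control Teff, a difference of 1.26 (SE 0.31, adjusted p = 0.0473), which was 0.31 as deposited and did not pass there. It was the 1 gene of 21 in the OX40 and TNF receptor list that rose, and none fell, while as deposited none was called higher and 4 were called lower. Tnfrsf9, the costimulatory receptor 4-1BB, had 7.89 and 7.35 in OX40L-JAG1 Teff and 6.88 and 7.05 in Control Teff. Tnfrsf1a, a receptor for TNF, had 6.05 and 6.41 in OX40L-JAG1 Teff, against 7.60 and 7.56 in Control Teff, and just missed the threshold (adjusted p = 0.0568). Cd27, a costimulatory receptor of resting T cells, had 8.67 and 8.85 in OX40L-JAG1 Teff and 10.39 and 10.25 in Control Teff (adjusted p = 0.0707). The adaptors Traf1 and Traf2 differed by 0.45 and 0.03 without passing.

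None of 20 genes of NF-kappaB subunits and feedback inhibitors passed in limma. An unadjusted p under 0.05 was reached by 0 higher and 2 lower genes, and by 1681 higher and 2261 lower of all 22180. Nfkb2, the subunit precursor of the noncanonical pathway, had 7.30 and 6.80 in OX40L-JAG1 Teff and 6.82 and 6.89 in Control Teff. Rel, a subunit induced by T cell receptor signals, had 8.07 and 7.51 in OX40L-JAG1 Teff, against 8.58 and 8.62 in Control Teff, and the feedback inhibitor Tnfaip3 had 6.98 and 7.41 in OX40L-JAG1 Teff and 8.19 and 8.04 in Control Teff. The list's median was -0.18, and it was -1.17 as deposited, where 10 of the 20 were called lower, -1.40 after centring and 0.02 after loess.

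In the Notch pathway the receptors and most targets did not pass. Notch1 had 8.62 and 7.67 in OX40L-JAG1 Teff, against 8.37 and 8.44 in Control Teff, with the Control Teff values between the OX40L-JAG1 Teff arrays. Notch2 had 8.11 and 7.28 in OX40L-JAG1 Teff and 7.94 and 7.98 in Control Teff, with the same overlap. Notch3 had 6.80 and 4.77 in OX40L-JAG1 Teff and 5.14 and 4.81 in Control Teff, so 1 array was above and 1 below the median of all values. Of the 25 receptor, ligand and processing genes 1 fell and none rose, while as deposited 10 were called lower and with either OX40L-JAG1 Teff array left out there was none. That gene was Maml1, a coactivator of the Notch intracellular domain, with 5.36 and 5.68 in OX40L-JAG1 Teff and 7.27 and 7.11 in Control Teff, a difference of -1.67 (SE 0.35, adjusted p = 0.0269). Numb, an inhibitor of Notch, had 5.26 and 6.29 in OX40L-JAG1 Teff, against 7.25 and 6.98 in Control Teff (adjusted p = 0.0906).

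Among 18 Notch target genes 1 rose, Il2ra, and 1 fell. Dtx1, a ubiquitin ligase induced by Notch in lymphocytes, fell by 1.72 on the log2 scale (SE 0.36, adjusted p = 0.0278), with 7.62 and 7.50 in OX40L-JAG1 Teff and 9.15 and 9.40 in Control Teff. The mean of its rows on the array gave -1.001, which did not pass. Against fresh cells Dtx1 also differed by -2.84 in anti-CD3-CD28 Teff, cultured without added JAG1, and by -2.13 in OX40L-JAG1 Treg. Hes1, a repressor and classic target, had 4.26 and 4.61 in OX40L-JAG1 Teff and 5.10 and 4.74 in Control Teff, at or near background in both. Hes5 had 6.70 and 7.05 in OX40L-JAG1 Teff, against 5.65 and 5.66 in Control Teff, and Heyl had 6.66 and 5.92 in OX40L-JAG1 Teff, against 5.10 and 5.39 in Control Teff. Both were higher on both OX40L-JAG1 Teff arrays and did not pass, with adjusted p of 0.123 and 0.273. Myc, a growth regulator and Notch target in thymocytes, had 6.62 and 6.78 in OX40L-JAG1 Teff, against 8.06 and 8.18 in Control Teff (adjusted p = 0.0671).

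Heat shock genes fell in part in OX40L-JAG1 Teff, 3 of 23 (13%, against 1.88% of all genes) with none higher. Their median difference was -0.41. As deposited 13 of the 23 were called lower. Of the 23, 1 was called lower without OX40L-JAG1 Teff replicate B and 1 without replicate 1, Hspa1a in both. Hspa1a and Hspa1b encode the inducible HSP70 chaperones and were among the brightest genes of the fresh cells. Hspa1a had 8.70 and 8.72 in OX40L-JAG1 Teff, against 11.66 and 11.67 in Control Teff, a difference of -2.95 (SE 0.31, adjusted p = 0.000657). Hspa1b had 8.65 and 9.25 in OX40L-JAG1 Teff and 12.37 and 12.38 in Control Teff, a difference of -3.42 (SE 0.56, adjusted p = 0.0107). The 2 genes are near-identical copies, so their probes may not separate them. Dnajb1, the HSP40 partner of HSP70, had 7.55 and 7.84 in OX40L-JAG1 Teff, against 9.22 and 9.18 in Control Teff, a difference of -1.51 (SE 0.32, adjusted p = 0.0278). Other chaperones were lower without passing, such as Hsp90aa1 with 7.17 and 7.71 in OX40L-JAG1 Teff and 8.81 and 8.67 in Control Teff, and those of the endoplasmic reticulum, Hspa5 and Hsp90b1, differed by -0.21 and -0.02.

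The promoters of Hspa1a and Hspa1b are shown because heat shock genes share a known motif of the heat shock factor, here searched as GAANNTTC, which reads the same on both strands. The 250 bases before each start are from RefSeq, build GRCm38.p6, with the match in capitals. The window of Hspa1a lies at chr17:34972157-34972406 and that of Hspa1b at chr17:34959239-34959488, both on the minus strand.
Hspa1a: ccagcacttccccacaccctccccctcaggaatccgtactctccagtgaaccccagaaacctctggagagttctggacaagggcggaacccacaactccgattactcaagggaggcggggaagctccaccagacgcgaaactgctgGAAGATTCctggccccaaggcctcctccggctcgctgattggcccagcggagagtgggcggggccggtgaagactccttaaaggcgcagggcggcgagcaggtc
Hspa1b: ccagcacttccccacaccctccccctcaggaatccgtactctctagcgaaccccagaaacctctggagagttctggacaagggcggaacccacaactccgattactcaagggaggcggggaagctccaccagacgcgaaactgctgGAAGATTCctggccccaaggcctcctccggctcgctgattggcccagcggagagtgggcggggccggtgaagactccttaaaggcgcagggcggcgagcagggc
Each held 1 match, GAAGATTC, at positions -104 to -97 counted from the start, and the windows were identical at 247 of 250 bases. Of 32851 promoter windows of the same length, 6.69% held the motif. Neither of the 2 Dnajb1 windows in the table held it.

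Immediate early genes, which are transcribed within minutes of a stimulus or of handling, had 5 of 28 lower and 1 higher, with a median of -0.31. Those shares were 17.9% lower and 3.57% higher, against 1.88% and 1.33% of all genes. As deposited 13 were called lower and none higher. None was called without OX40L-JAG1 Teff replicate B, and without replicate 1 there was 1, lower. Jun, a subunit of AP-1, had 9.07 and 9.01 in OX40L-JAG1 Teff, against 11.30 and 11.30 in Control Teff, a difference of -2.26 (SE 0.40, adjusted p = 0.0141). Fos, its partner, had 7.86 and 7.99 in OX40L-JAG1 Teff and 9.76 and 9.97 in Control Teff, a difference of -1.94 (SE 0.37, adjusted p = 0.0185). Egr1 fell by 2.36 on the log2 scale and Nr4a1, a nuclear receptor induced by T cell receptor signals, by 1.86. Ppp1r15a, a stress-induced phosphatase subunit, differed by -1.72. The gene that rose was Rgs1, a regulator of G protein signals, with 8.41 and 8.94 in OX40L-JAG1 Teff and 6.49 and 6.59 in Control Teff, a difference of 2.14 (SE 0.32, adjusted p = 0.00735), which did not pass as deposited.

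Genes of resting T cells fell in part, 4 of 28 (14.3%, against 1.88% of all genes) with none higher and a median of -0.59. As deposited 16 were called lower, and with either OX40L-JAG1 Teff array left out there was none. Igfbp4 had 8.19 and 8.83 in OX40L-JAG1 Teff and 10.34 and 10.30 in Control Teff, a difference of -1.81 (SE 0.38, adjusted p = 0.0278). Foxo1, a factor of quiescence, differed by -1.58 (SE 0.34, adjusted p = 0.0285), while the mean of its rows gave 0.03. Klf3, a repressor, differed by -1.38 and Cd55, which guards cells against complement, by -1.60. Foxo1 and Klf3 lost the call after loess.

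T cell activation genes split, 3 of 27 higher (11.1%, against 1.33% of all genes) and 2 lower (7.41%, against 1.88%). Their median was -0.01, which was 0.04 after loess, -0.55 as deposited and -0.78 after centring. The higher genes were Ccl3, Il2ra and Ctla4 and the lower ones Irf4 and Tigit. Il2ra, Ctla4 and Tigit are also on the Treg list, and Il2ra on the Notch target and IL-2 receptor lists, so these calls are not separate. As deposited 1 was called higher and 5 lower, without OX40L-JAG1 Teff replicate B 1 higher and none lower, and without replicate 1 there was 1 in each direction. The highest was Ccl3, a chemokine of activated T cells and of myeloid cells, with 8.73 and 9.54 in OX40L-JAG1 Teff and 4.84 and 5.33 in Control Teff, a difference of 4.05 (SE 0.47, adjusted p = 0.00136). Irf4, a factor that rises with T cell receptor signal strength, had 3.92 and 4.17 in OX40L-JAG1 Teff and 6.17 and 6.28 in Control Teff, a difference of -2.18 (SE 0.34, adjusted p = 0.00811). Ccl6 and Ccl22, chemokines of myeloid cells, also rose. Ccl6 had 7.97 and 9.71 in OX40L-JAG1 Teff and 4.56 and 3.93 in Control Teff, a difference of 4.59 (SE 0.75, adjusted p = 0.00995), and Ccl22 differed by 1.86 (SE 0.38, adjusted p = 0.0261). These 3 were the chemokine and receptor genes that rose among 30, and none fell. The summed levels of the myeloid lists, given above, moved with them, and their part in these rises was not tested.

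Of 20 T helper lineage regulators 1 fell and none rose, and as deposited 9 were called lower. Maf, a factor of IL-4 and IL-10 producing T cells, had 4.73 and 4.82 in OX40L-JAG1 Teff, against 6.82 and 6.74 in Control Teff, a difference of -2.01 (SE 0.34, adjusted p = 0.0119), and the mean of its rows, -1.72, did not pass. None of 23 effector cytokine genes passed in limma. An unadjusted p under 0.05 was reached by 1 higher and 0 lower genes, and by 1681 higher and 2261 lower of all 22180. Il2, the T cell growth factor, was below the median of all values on all 4 arrays, with 3.24 and 3.16 in OX40L-JAG1 Teff and 3.21 and 3.58 in Control Teff. Ifng had 4.24 and 4.69 in OX40L-JAG1 Teff, against 5.16 and 5.04 in Control Teff. None of 16 granzyme and cytotoxic genes passed, while an unadjusted p under 0.05 was reached by 2 higher and 2 lower genes. Gzmb, granzyme B, had 6.23 and 6.91 in OX40L-JAG1 Teff and 5.16 and 5.34 in Control Teff (adjusted p = 0.0998). In the IL-2 receptor and STAT5 list Il2ra rose and Bcl2 fell, 2 of 16.

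Bcl2, which protects lymphocytes from apoptosis, had 6.91 and 7.19 in OX40L-JAG1 Teff, against 9.14 and 8.95 in Control Teff, a difference of -1.99 (SE 0.38, adjusted p = 0.0184), and the mean of its rows, -1.23, did not pass. Casp8, the initiator caspase of death receptors, had 8.54 and 8.62 in OX40L-JAG1 Teff and 10.54 and 10.32 in Control Teff, a difference of -1.84 (SE 0.36, adjusted p = 0.0213). These were the 2 of 24 BCL2 family and death receptor genes that fell (8.33%, against 1.88% of all genes), and none rose.

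Genes of glycolysis and of the hypoxia response rose in part on the quantile-normalized scale, 5 of 23 with none lower. That share of higher genes was 21.7%, against 1.33% of all genes. The median difference was 0.89 and 20 of the 23 differences were positive. None of the 5 calls was made without OX40L-JAG1 Teff replicate B or without its replicate 1. Tpi1, triose phosphate isomerase, had 9.98 and 9.93 in OX40L-JAG1 Teff, against 7.88 and 7.98 in Control Teff, a difference of 2.03 (SE 0.33, adjusted p = 0.0101). Pgk1, phosphoglycerate kinase, had 10.55 and 10.36 in OX40L-JAG1 Teff and 9.11 and 9.02 in Control Teff, a difference of 1.39 (SE 0.31, adjusted p = 0.035). Aldoc, an aldolase, differed by 1.96, the lactate exporter Slc16a3 by 1.63, and Bnip3, a mitophagy receptor induced by hypoxia, by 1.82. Gapdh was not among them, with 11.48 and 10.88 in OX40L-JAG1 Teff and 12.23 and 12.20 in Control Teff. The direction depended on the scale, since the median of the list was -0.02 with the deposited values and -0.25 after median centring, where Tpi1, Pgk1, Aldoc and Slc16a3 did not pass.

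Of 22 genes of cholesterol and fatty acid synthesis 2 rose (9.09%, against 1.33% of all genes) and 1 fell (4.55%, against 1.88%). Fdps, farnesyl diphosphate synthase, had 8.84 and 9.08 in OX40L-JAG1 Teff and 6.65 and 6.79 in Control Teff, a difference of 2.24 (SE 0.34, adjusted p = 0.00767). Mvd, an earlier enzyme of the same path, differed by 1.78 (SE 0.44, adjusted p = 0.0497). Elovl6, a fatty acid elongase, had 5.10 and 4.94 in OX40L-JAG1 Teff, against 7.003 and 7.006 in Control Teff, a difference of -1.98 (SE 0.41, adjusted p = 0.0269). Fdps and Mvd did not pass as deposited, where none was called higher and 4 were called lower. None of 41 oxidative phosphorylation subunits passed in limma. An unadjusted p under 0.05 was reached by 7 higher and 2 lower genes, and by 1681 higher and 2261 lower of all 22180. Ndufb7, a subunit of complex I, came nearest, with 8.13 and 8.65 in OX40L-JAG1 Teff and 6.83 and 6.60 in Control Teff (adjusted p = 0.0504). None of 36 proteasome subunits passed, while an unadjusted p under 0.05 was reached by 7 higher and 2 lower genes. Psmd1 had 5.08 and 6.91 in OX40L-JAG1 Teff, against 7.88 and 7.89 in Control Teff (adjusted p = 0.061). In both lists the OX40L-JAG1 Teff arrays differed from each other more than the groups did, since replicate 1 minus replicate B had a median of 0.92 for oxidative phosphorylation and 0.60 for the proteasome, while the median differences between the groups were 0.25 and 0.30 (-0.46 and -0.63 as deposited, where 4 and 5 genes were called lower). None of 24 genes of amino acid supply and the integrated stress response passed, while an unadjusted p under 0.05 was reached by 0 higher and 2 lower genes. Slc39a8, a zinc importer, fell by 1.60 on the log2 scale (adjusted p = 0.0272), the 1 of 15 metallothionein and zinc transport genes to pass.

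Cell cycle genes did not rise in these cultured cells. Of 36, none rose and 2 fell (5.56%, against 1.88% of all genes), and the median was -0.27. As deposited 9 were called lower, without OX40L-JAG1 Teff replicate B none, and without replicate 1 there was 1. Mki67, a marker of cycling cells, had 6.96 and 8.34 in OX40L-JAG1 Teff, against 8.24 and 8.29 in Control Teff, so replicate B was lower and replicate 1 level with the fresh cells. Mcm3, a subunit of the replicative helicase, had 5.36 and 6.47 in OX40L-JAG1 Teff and 7.53 and 7.39 in Control Teff, a difference of -1.54 (SE 0.36, adjusted p = 0.0394). Ccnd2, cyclin D2, had 8.75 and 9.18 in OX40L-JAG1 Teff and 10.31 and 10.46 in Control Teff, a difference of -1.42 (SE 0.35, adjusted p = 0.0497). Both lost the call after loess.

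Histone genes rose in part, 7 of 20 (35%, against 1.33% of all genes) with none lower and a median of 0.86. H2ac20 had 9.29 and 10.19 in OX40L-JAG1 Teff, against 6.46 and 6.77 in Control Teff, a difference of 3.13 (SE 0.53, adjusted p = 0.0118). H2bc18 had 9.49 and 9.83 in OX40L-JAG1 Teff and 6.96 and 6.82 in Control Teff, a difference of 2.77 (SE 0.44, adjusted p = 0.00947). H2bc3, H2bc12, H1f5, H2ac10 and H4c12 rose by 1.56 to 2.88. Members of this family are near-identical copies, so their probes may not separate them. H4c9 was below the median of all values on replicate B alone, with 4.07 and 7.63 in OX40L-JAG1 Teff and 6.53 and 6.33 in Control Teff. No histone gene was called without OX40L-JAG1 Teff replicate B or without its replicate 1. Over the list replicate 1 minus replicate B had a median of 1.08 in OX40L-JAG1 Teff and 0.02 in Control Teff.

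Small nucleolar RNA genes, which guide the modification of ribosomal RNA, rose in part, 23 of 79 with none lower, with a median of 1.41. The share of these genes that rose was 29.1%, against 1.33% of all genes. Without OX40L-JAG1 Teff replicate B 7 of them were called higher, and 7 without replicate 1. For 75 of them, against 24% of all genes, both OX40L-JAG1 Teff arrays were above both Control Teff arrays. Rps18 and Rps20, proteins of the small ribosomal subunit, were the 2 of 32 ribosomal protein genes that passed. The positions of probes were not used here, so whether the signal given for Rps18, Rps20, Ppan, Med24, Rabggtb or Wdyhv1 comes from the gene itself or from a small nucleolar RNA within it was not tested. The RefSeq table places 2 such RNA genes inside Rabggtb and 0 inside the others. Rps18 had 11.64 and 11.27 in OX40L-JAG1 Teff, against 7.88 and 7.36 in Control Teff, a difference of 3.84 (SE 0.48, adjusted p = 0.00237). Rps20 had 10.79 and 11.29 in OX40L-JAG1 Teff and 7.53 and 7.44 in Control Teff, a difference of 3.56 (SE 0.51, adjusted p = 0.00507). The ribosomal protein list as a whole had a median of -0.04, which was 0.18 after loess and -0.52 as deposited. Of 26 ribosome biogenesis genes 1 rose (3.85%, against 1.33% of all genes) and 4 fell (15.4%, against 1.88%). As deposited 1 of the 26 was called higher and 14 lower, while with either OX40L-JAG1 Teff array left out there was none. Ppan, a nucleolar assembly factor, had 10.68 and 11.02 in OX40L-JAG1 Teff and 8.55 and 8.43 in Control Teff, a difference of 2.36 (SE 0.42, adjusted p = 0.0143), and the mean of its rows, 1.12, did not pass. Mybbp1a, Utp20, Dkc1 and Noc4l, also nucleolar proteins, fell by 1.54 to 1.86 on the log2 scale. Of the 73 genes with an annotated small nucleolar RNA gene inside their span 4 rose and 2 fell. Those shares were 5.48% and 2.74%, against 1.33% and 1.88% of all genes.

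Interferon-stimulated genes split, 2 of 33 higher (6.06%, against 1.33% of all genes) and 3 lower (9.09%, against 1.88%). As deposited none was called higher and 10 were called lower. None was called without OX40L-JAG1 Teff replicate B, and without replicate 1 there was 1, lower. The GTPases Iigp1 and Irgm2, induced by interferon gamma, rose by 1.66 and 1.47. Iigp1 had 8.54 and 8.62 in OX40L-JAG1 Teff and 6.79 and 7.04 in Control Teff. Mx2, Usp18 and Ifih1, genes of the type I interferon response, differed by -1.84, -1.50 and -1.40. Ifih1, an RNA sensor, had 6.08 and 6.43 in OX40L-JAG1 Teff, against 7.57 and 7.73 in Control Teff. The rises did not pass as deposited, and neither did Mx2, while Usp18 and Ifih1 did not pass after loess.

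The other large falls were spread over functions. Ifi208, a PYHIN family gene, had 3.84 and 5.36 in OX40L-JAG1 Teff and 8.76 and 8.03 in Control Teff, a difference of -3.79 (SE 0.73, adjusted p = 0.0205). Plekhg2 had 4.10 and 4.64 in OX40L-JAG1 Teff, against 7.60 and 7.55 in Control Teff, a difference of -3.21 (SE 0.33, adjusted p = 0.000657). Extl3, a glycosyltransferase of heparan sulfate synthesis, had 5.09 and 4.50 in OX40L-JAG1 Teff and 7.92 and 7.86 in Control Teff, a difference of -3.10 (SE 0.40, adjusted p = 0.0032). Plekhg2, Extl3 and Hspa1a were the named falls that kept the call with either OX40L-JAG1 Teff array left out. Prag1, Abitram, Trim30d, Ces2g and Zfp942 fell by 2.85 to 3.12 on the log2 scale. In OX40L-JAG1 Teff both arrays of Plekhg2, Prag1, Abitram, Trim30d and Ces2g were below the median of all values.

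The difference moved with the length of the gene. Among 10222 genes with a mean above the median of all values, ranked by genomic span and split into 5 groups of like size, the median difference was 0.23, -0.05, -0.22, -0.38 and -0.48 from the group of the shortest to that of the longest genes, whose median spans were 4.26 and 105 kb. The group of the shortest genes had 92 higher and 30 lower, and that of the longest 9 higher and 113 lower. Spearman's correlation of the difference with span was -0.293 across these genes, which are not independent replicates. It was -0.178 for anti-CD3-CD28 Teff minus Control Teff, which shares the Control Teff arrays, and 0.134 for OX40L-JAG1 Treg minus Control Treg. The part of gene length, or of RNA quality, in the changes of single genes was not tested.

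**Figure D4:**
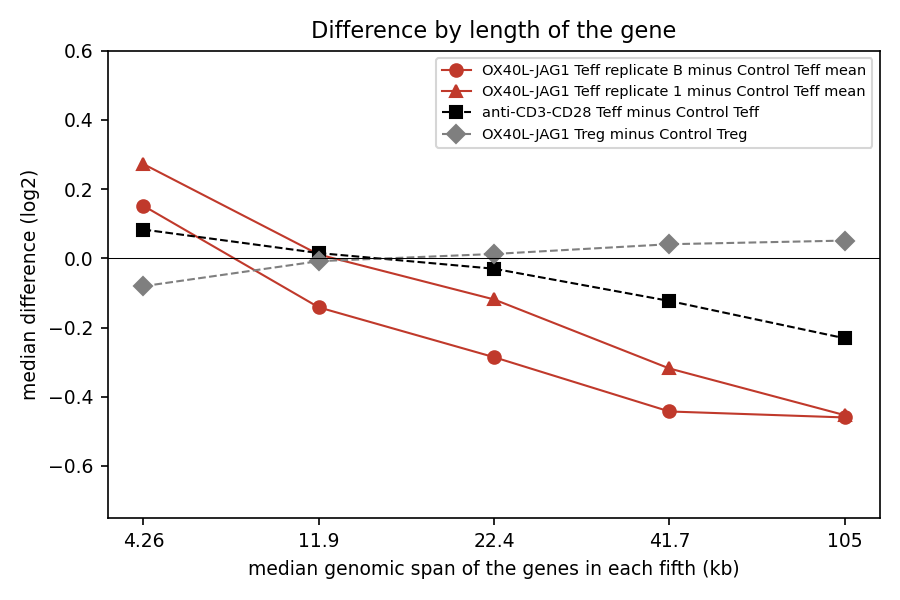
Median difference from fresh cells (log2) in 5 groups of genes of rising genomic span (median span of each group in kb on the horizontal axis); red lines are OX40L-JAG1 Teff replicate B (circles) and replicate 1 (triangles) minus the Control Teff mean, the black line anti-CD3-CD28 Teff minus Control Teff, and the grey line OX40L-JAG1 Treg minus Control Treg. Both red lines fall from the shortest to the longest genes, and the grey line does not.

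Sex-linked genes differed in part. Xist, expressed from the inactive X chromosome of females, had 8.04 and 8.24 in OX40L-JAG1 Teff and 10.63 and 10.59 in Control Teff, and the Y-linked Eif2s3y had 7.77 and 8.67 in OX40L-JAG1 Teff, against 6.70 and 6.76 in Control Teff. Both passed, with differences of -2.47 and 1.49. Kdm5d and Uty, also Y-linked, did not pass. Kdm5d had 4.25 and 5.87 in OX40L-JAG1 Teff and 6.08 and 6.28 in Control Teff, and Uty had 5.27 and 7.23 in OX40L-JAG1 Teff and 6.46 and 6.26 in Control Teff. In anti-CD3-CD28 Teff, Eif2s3y had 3.43 and 3.55, Kdm5d 2.98 and 3.48, Uty 3.73 and 3.77, and Xist 10.41 and 10.22. For OX40L-JAG1 Teff minus anti-CD3-CD28 Teff, Eif2s3y (4.73) and Xist (-2.18) passed, and Kdm5d and Uty did not. The part of the sex of the mice in the results was not tested.

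The same contrast in Treg cells shares no arrays with the one in Teff cells, and the 2 responses were compared directly. Treg and Teff cells were cultured together before the sort, so arrays of both kinds may come from the same cultures, which is not stated. Changes seen in both are thus not independent. The difference between them passed for 577 genes (2.6%), 241 (1.09%) more positive in Teff and 336 (1.51%) more negative. Across the 22180 genes the differences of Teff and Treg had a Pearson r of 0.0573 and a Spearman correlation of -0.0338, a description across genes. Of the 295 genes higher in OX40L-JAG1 Teff 143 had a positive difference in Treg, and of the 416 lower ones 229 had a negative one. Over all genes the median difference in Treg was -0.0076, so positive and negative ones were about equally common. Both counts lay near such an even split.

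Several myeloid genes were higher than in fresh cells in both kinds of cell. S100a8 rose by 6.44 in Teff, and its difference was 6.04 (SE 0.26) in Treg, where it had 9.42 and 9.69 in OX40L-JAG1 Treg and 3.40 and 3.63 in Control Treg. Mcpt8 differed by 5.99 in Teff and 4.53 in Treg, and Lyz2 by 5.17 and 4.19 in the same order. For these 3 the responses did not pass as different. For the granule genes Ltf, Camp and Ngp they did, with Teff minus Treg at 2.56 (SE 0.47, adjusted p = 0.0178) for Ltf, 2.98 for Camp and 1.83 for Ngp. H2-Ab1 was the reverse, with 1.87 in Teff and 3.53 in Treg, a difference of responses of -1.66 (SE 0.39, adjusted p = 0.0463). Its fresh level was 4.85 and 4.68 in Control Treg, below the median of all values, and 7.35 and 7.34 in Control Teff. After culture it had 8.12 and 8.47 in OX40L-JAG1 Treg and 8.95 and 9.49 in OX40L-JAG1 Teff. Hspa1a differed by -2.95 in Teff and -3.54 in Treg, and Hspa1b by -3.42 in Teff and -3.32 in Treg, and for neither did the responses pass as different.

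Genes of the T cell receptor complex and small nucleolar RNA genes were among those whose responses differed. Cd4 differed by -1.98 in Teff and 0.42 in Treg, a difference of responses of -2.40 (SE 0.47, adjusted p = 0.0235), and Cd3e likewise by -1.64 and 0.20, with -1.84 (SE 0.39, adjusted p = 0.0337) for the responses. Foxo1, Cd55, Elovl6 and Maml1 showed the same pattern, with Teff minus Treg between -2.21 and -1.72. On the positive side Rps20 rose by 3.56 in Teff and its difference was -2.09 in Treg, a difference of responses of 5.65 (SE 0.56, adjusted p = 0.000467). The fresh levels of Rps20 already differed, with 7.53 and 7.44 in Control Teff and 9.92 and 9.78 in Control Treg. In OX40L-JAG1 Treg it had 7.32 and 8.19. Med24, a subunit of the Mediator complex, differed by 3.69 in Teff and -2.12 in Treg, a difference of responses of 5.80 (SE 0.69, adjusted p = 0.00148), although the mean of its rows in Teff was 1.61 and did not pass. Its fresh levels were 6.74 and 6.74 in Control Teff and 9.89 and 9.57 in Control Treg. Rabggtb, a prenyltransferase subunit whose span holds 2 annotated small nucleolar RNA genes, differed by 2.94 in Teff and -2.15 in Treg. Wdyhv1, an amidase of the N-degron path, and Ppan followed with differences of responses of 4.34 and 4.41. In Teff Wdyhv1 differed by 2.77, and the mean of its rows, 1.21, did not pass. Of the 79 small nucleolar RNA genes 44 had a more positive response in Teff, against 1.09% of all genes, and none a more negative one. The median difference was 1.41 in Teff and -0.90 in Treg. So did 6 histone genes, with none more negative. Car1 and Car2 had more negative responses in Teff, with Teff minus Treg at -3.63 and -4.01, and Ifi208, Abitram and Zfp944 lay between -3.68 and -3.31. In Control Treg, Car1 had 4.74 and 5.29 and Car2 4.65 and 5.00, near the median of all values. A fall of these 2 genes in Treg could thus hardly be measured, and the contrast cannot show whether the responses differ.

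**Figure D5:**
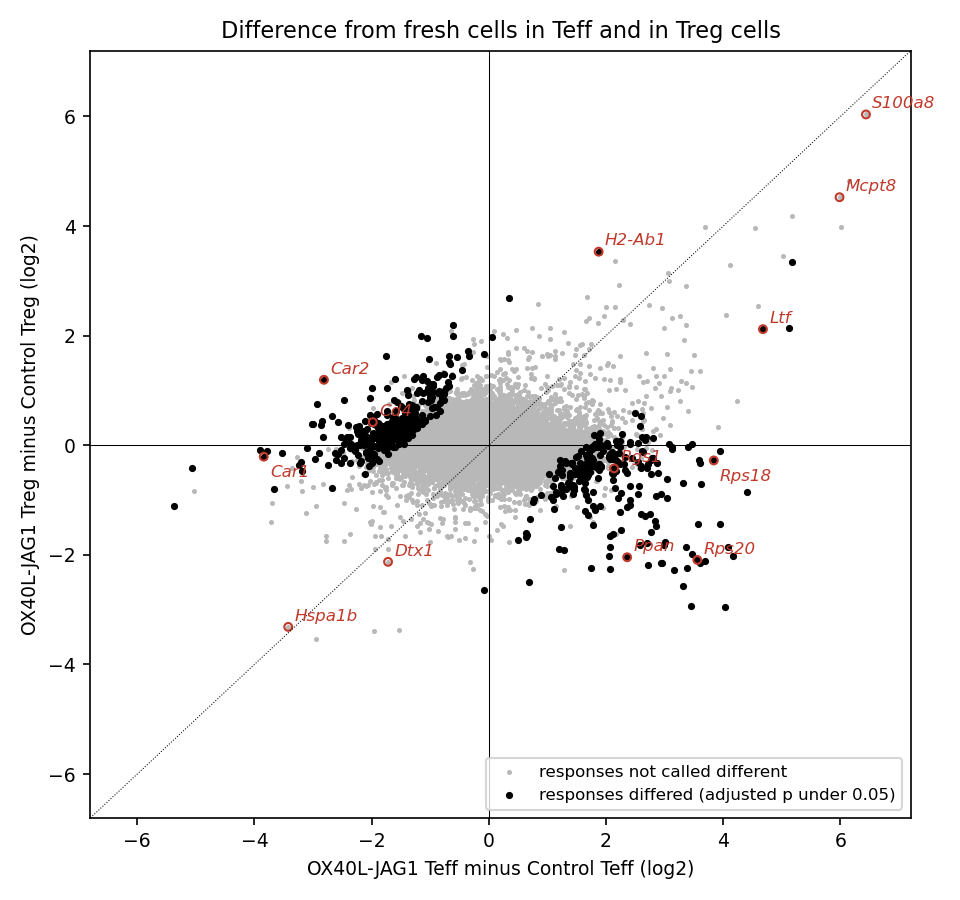
Difference from fresh cells for each of 22180 genes in Teff (horizontal axis, OX40L-JAG1 Teff minus Control Teff, log2) and in Treg (vertical axis, OX40L-JAG1 Treg minus Control Treg, log2); black points are the 577 genes whose responses differed, grey points the rest, and the dotted line marks equal responses. S100a8 and Mcpt8 lie near the line at the upper right and Hspa1b near it at the lower left, while Rps20 lies at 3.56 in Teff and -2.09 in Treg.

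Set against Teff cells cultured for the same 3 days with anti-CD3 and anti-CD28, OX40L-JAG1 Teff had 82 genes higher (0.37%) and 301 lower (1.36%). Both comparisons with fresh cells share the Control Teff arrays, so their values are given side by side and the test is that of the cultures against each other. Sex-linked genes differed between the cultures, as given above, and the part of sex in this comparison was not tested. Of the 22 neutrophil genes 10 were higher in OX40L-JAG1 Teff than in anti-CD3-CD28 Teff and none was lower. S100a8 had 11.41 and 11.87 in OX40L-JAG1 Teff, against 5.02 and 4.23 in anti-CD3-CD28 Teff, a difference of 7.02 (SE 0.59, adjusted p = 9.29e-05). Ppbp, by contrast, had 8.15 and 9.54 in OX40L-JAG1 Teff and 7.70 and 7.78 in anti-CD3-CD28 Teff and did not pass. Hspa1a had 8.70 and 8.72 in OX40L-JAG1 Teff, against 3.52 and 3.69 in anti-CD3-CD28 Teff, a difference of 5.11 (SE 0.32, adjusted p = 1.35e-05).

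Many activation and cell cycle genes were lower than with the antibodies. Of the 36 cell cycle genes 17 and of the 27 activation genes 12 were lower in OX40L-JAG1 Teff than in anti-CD3-CD28 Teff, and none was higher. Among all genes 1.36% were lower and 0.37% higher. Mki67 had 6.96 and 8.34 in OX40L-JAG1 Teff, against 10.07 and 10.02 in anti-CD3-CD28 Teff, a difference of -2.40 (SE 0.37, adjusted p = 0.00577). Gzmb had 6.23 and 6.91 in OX40L-JAG1 Teff, against 11.64 and 11.60 in anti-CD3-CD28 Teff, a difference of -5.06 (SE 0.42, adjusted p = 9.29e-05). Il2ra had 8.35 and 8.64 in OX40L-JAG1 Teff, against 11.35 and 11.25 in anti-CD3-CD28 Teff, a difference of -2.80 (SE 0.38, adjusted p = 0.00239). Tnfrsf4 had 7.69 and 8.04 in OX40L-JAG1 Teff, against 9.93 and 9.93 in anti-CD3-CD28 Teff, a difference of -2.06 (SE 0.32, adjusted p = 0.00547). Against Control Teff, Il2ra differed by 1.88 in OX40L-JAG1 Teff and 4.69 in anti-CD3-CD28 Teff, and Tnfrsf4 by 1.26 and 3.32 in the same order. Of 33 interferon-stimulated genes 12 were lower with the ligands and none was higher, among them Mx2 with a difference of -3.14 (SE 0.43, adjusted p = 0.00264). For immunoglobulin segments the median difference from Control Teff was -3.00 in OX40L-JAG1 Teff and -3.69 in anti-CD3-CD28 Teff, and 1 of the 22 was called between the cultures. For glycolysis it was 0.89 and 1.95, and 4 of 23 were lower with the ligands. For small nucleolar RNA genes it was 1.41 and 1.36, and none of the 79 was called between the cultures. For histone genes it was 0.86 and 1.72, and 1 of 20 was lower with the ligands and none higher.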

How the data were processed

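Each of the 12 samples, 2 for each of 6 groups of sorted T cells, was hybridised to 1 Affymetrix array (Mouse Gene 2.0 ST). The deposited values were log2 intensities made by the authors with RMA, per the submitters' processing notes; the version and genome build are not given in the sources used here. Probe names came from GEO's platform annotation: of 41345 rows, 23521 had 1 gene symbol, 1814 several and 16010 none, and symbols were updated through the Entrez number for 23328. The row with the highest mean stood for a gene, which gave 22180 genes.

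The deposited log2 values were quantile normalized over the 12 arrays, because the 2 OX40L-JAG1 Teff arrays had a narrower range. All groups were fitted in limma 3.58.1 (R 4.3.3) with 1 weight per group, 6 residual degrees of freedom and empirical Bayes shrinkage, and p-values were adjusted by Benjamini-Hochberg over all genes. An adjusted p under 0.05 was called. The comparison and its gene lists were chosen with earlier results of these data known.

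Named genes were the 12 largest rises and the 12 largest falls with arrays that did not overlap and the higher mean above the median of all values, the list members with the smallest p (up to 6 of a list), the 5 largest differences between the Teff and Treg responses in each direction, and Foxp3, Tnfrsf4, Notch1, Notch2, Notch3, Hes1, Dtx1, Nfkb2, Mki67 and Il2. Predicted genes, small RNA genes, olfactory receptors and receptor segments were not named. Other list members given with values were chosen after their values were seen. A list's summed level is the log2 of the sum of its linear intensities. Scripts were tested on simulated data.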

Additional observations from a re-analysis of the deposited data

Results flagged for a closer look

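The response of a gene here is its difference between OX40L-JAG1 and fresh cells, and a gene is listed where the response in Teff minus the response in Treg passed at an adjusted p under 0.05 in limma. Of the 123 named genes 39 did so; some of them were named for this very difference, so the count says nothing about the named genes as a group. No other pattern was looked at more closely, because groups of 2 arrays allow no check for a sample far from the others.

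In 18 genes the response was more positive in Teff. For some of the genes in either direction, the levels of fresh Teff and fresh Treg cells already differed, as given above. The differences between the responses were 5.80 for Med24, 5.65 for Rps20, 5.09 for Rabggtb, 4.41 for Ppan, 4.34 for Wdyhv1 and 4.12 for Rps18. Histone genes had 3.38 for H2bc3, 3.30 for H2bc18, 3.16 for H2ac20, 2.98 for H2bc12, 2.55 for H1f5 and 1.87 for H2ac10. Neutrophil granule genes had 2.98 for Camp, 2.56 for Ltf and 1.83 for Ngp. Rgs1 had 2.56, and the complex I subunit genes Ndufb7 and Ndufa1 had 2.17 and 2.03.

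In 21 genes the response was more negative in Teff. T cell and lymphocyte genes had -2.40 for Cd4, -1.84 for Cd3e, -1.84 for Foxo1 and -1.79 for Cd55. The Notch pathway genes Maml1 and Numb had -1.72 and -1.87. The zinc importers Slc39a6 and Slc39a8 had -2.31 and -1.56. Elovl6 had -2.21, Wars, a tRNA synthetase, -2.08, Ifih1 -1.69 and H2-Ab1 -1.66. The red cell carbonic anhydrases Car1 and Car2 had -3.63 and -4.01, with Control Treg levels near the median of all values, so a fall in Treg could hardly be measured. Ifi208 had -3.68, Abitram -3.40, Zfp944 -3.31, Zfp942 -3.29, Extl3 -3.05, Plekhg2 -2.90 and Trim30d -2.75.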

How the results depend on the processing

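The main counts were 711 genes for OX40L-JAG1 Teff against Control Teff, 577 for the response in Teff minus that in Treg and 383 for OX40L-JAG1 Teff against anti-CD3-CD28 Teff. In the same order they were 3314, 3579 and 727 with the values as deposited, 4391, 4459 and 1020 centred on the median, 4823, 2391 and 3476 without group weights, and 706, 598 and 434 after loess. For the first comparison, the 4 arrays alone gave 0 calls in limma with 4302 genes at an unadjusted p under 0.05, leaving out dim genes gave 1685, and shrinkage with trend and robust settings gave 1348. Leaving out 1 array in turn gave 49 to 692 calls: 49 without OX40L-JAG1 Teff replicate B, 376 without its replicate 1 and 409 without Control Teff replicate B, a lone array being taken to vary as its group's weight says. Leaving out small RNA genes, receptor segments and sex-linked genes, chosen after seeing the data, gave 598, and counts of list members without either OX40L-JAG1 Teff array were added likewise. A replicate block gave 643, 533 and 364 calls. The correlation of deviations between same-numbered arrays was 0.227 for OX40L-JAG1 Teff with OX40L-JAG1 Treg and -0.0265 to 0.0950 for the other pairs of groups, and since it was not over 0.1 in every pair of groups the numbers were not taken to pair the samples.

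Of 96 named genes that passed, 76 passed in the same direction as deposited, 74 after centring, 87 after loess, 89 with the replicate block, 87 with the mean of rows, 0 in the 4-array fit, 18 without OX40L-JAG1 Teff replicate B and 27 without its replicate 1. The direction turned in 1 of them, Foxo1 (0.029 with the mean of rows). Of genes that did not pass, it turned for Nfkb2 (-0.64 as deposited, -0.87 centred, -0.028 in the fit of all rows), Il2 (0.32 as deposited, 0.089 centred) and Psma6, a proteasome subunit (-0.0088 as deposited, -0.24 centred). Leaving out 1 array gave Notch1 -0.74 to 0.21, Notch2 -0.70 to 0.16, Notch3 -0.21 to 1.88, Nfkb2 -0.057 to 0.45 and Mki67 -1.32 to 0.075. The cause of these changes was not tested. The number of arrays limits the precision, and no detection call separates dim probes from background.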
